A study of Mus musculus with 4 samples.

Results

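Aminoacyl-tRNA synthetases attach amino acids to their tRNAs, the step that supplies charged tRNA to the ribosome. The cytosolic enzymes serve translation in the cytoplasm, a separate set of nuclear genes encodes the mitochondrial enzymes, and a few genes such as Gars and Kars serve both compartments. Several cytosolic synthetases are held together in the multisynthetase complex by scaffold proteins that include Aimp1 and Aimp2, and Xpot exports finished tRNA from the nucleus. ATF4 is a basic leucine zipper transcription factor of the integrated stress response, the pathway in which phosphorylation of eIF2α lowers general translation while ATF4 itself is made. Genes of amino acid synthesis, uptake and tRNA charging are among its textbook targets, often through an element that combines parts of a C/EBP site and an ATF site.

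The synthetase genes described here were chosen by name with no cutoff on a value, but with earlier results of these data known. They are 39 of the 21896 protein-coding genes in the gene table: 20 cytosolic or dual synthetases, 16 mitochondrial synthetases (symbols ending in 2) and the 3 partners Aimp1, Aimp2 and Xpot. All 39 matched a gene model by symbol. Of these, 30 had a transcription start in the RefSeq promoter table (13 cytosolic or dual, 14 mitochondrial and 3 partners). For the other 9, Cars, Hars, Lars, Nars, Rars, Vars, Wars, Hars2 and Pars2, both ends of the gene model were used.

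Chromatin bound by ATF4 was pulled down on streptavidin beads from heart ventricle of mice aged 4 weeks and sequenced, in 2 pull-down samples beside 2 input samples without pull-down. The antibody field of the pull-down samples reads AAV and that of the inputs reads none, with no further explanation, and genotype, strain and sex are not given in the sources used here. How the ATF4 came to be held by streptavidin, and whether it was the heart's own, is likewise not given, so the peaks cannot be read as a measure of the usual occupancy by the heart's own ATF4. Whether the pull-down samples are from different animals is not labelled, and an SD below is the spread between these 2 samples and may be technical.

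There were 3 peak lists, with 41639 peaks for the series as a whole, 78746 for replicate 1 and 88812 for replicate 2. The value used below is the authors' fold of a peak over its background. A fold here is taken over a constant background within each sample, not over input, and at the synthetase genes the series-wide fold equalled the higher of the replicate folds in 86 of 86 windows. The series-wide folds ran between 7.50 and 79.0 with a median of 13.7, and the lowest replicate folds were 5.50 and 5.32. Sequencing depth is unknown and input values are not analysed here. A called peak alone is no proof that ATF4 was bound. At heart muscle genes, peaks within 1 kb of a gene end had folds of 59.5 and 45.7 at Myh6, 62.0 and 60.3 at Tnnt2 and 7.50 and 9.75 at Ryr2 in replicates 1 and 2. Syn1 of neurons had no peak there, but the liver gene Alb had 10 and 19.1. Ventricle holds several cell types, and peaks from different cells cannot be told apart.

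The stretches around the starts of 5 cytosolic genes are shown first because they hold the letters TGATGNAA (N is any base), the core of the C/EBP-ATF element, close to a peak. All sequences are from RefSeq for GRCm38.p6 (the assembly of mm10), read 5′ to 3′ along the gene's strand. Capitals mark the element letters; TTTCATCA and TTGCATCA are the same letters read on the opposite strand. Positions count from 0 at the first transcribed base, and the stretches end at position 25. They lie at chr4:129189803-129189928 on the plus strand (Yars, for tyrosine), chr8:111033692-111033867 plus (Aars, alanine), chr6:55037901-55038026 plus (Gars, glycine), chr13:49682030-49682155 plus (Iars, isoleucine) and chr15:11399633-11399758 minus (Tars, threonine).
Yars: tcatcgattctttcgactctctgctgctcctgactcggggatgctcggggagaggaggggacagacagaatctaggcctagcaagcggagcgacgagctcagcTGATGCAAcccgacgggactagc
Aars: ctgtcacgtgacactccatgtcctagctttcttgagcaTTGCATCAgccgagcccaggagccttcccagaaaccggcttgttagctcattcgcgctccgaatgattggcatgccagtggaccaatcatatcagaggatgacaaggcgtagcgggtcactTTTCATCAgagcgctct
Gars: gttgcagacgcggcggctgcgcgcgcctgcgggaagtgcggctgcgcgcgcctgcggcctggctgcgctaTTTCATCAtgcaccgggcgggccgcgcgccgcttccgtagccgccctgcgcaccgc
Iars: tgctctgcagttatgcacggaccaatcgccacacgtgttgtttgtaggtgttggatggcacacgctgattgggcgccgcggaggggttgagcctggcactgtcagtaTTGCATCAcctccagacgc
Tars: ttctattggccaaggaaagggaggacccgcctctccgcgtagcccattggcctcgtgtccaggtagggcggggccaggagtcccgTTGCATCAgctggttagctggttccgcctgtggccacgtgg

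Farsa, which encodes a subunit of the cytosolic phenylalanine enzyme, is shown beside them because it also had a high fold while its promoter window held none of these letters. Its stretch lies at chr8:84856886-84857011 on the plus strand.
Farsa: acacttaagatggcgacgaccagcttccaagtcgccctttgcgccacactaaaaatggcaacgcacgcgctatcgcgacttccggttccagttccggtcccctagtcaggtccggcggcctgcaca

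The promoters of 3 mitochondrial genes are shown because they hold other letters, GCGCATGC, the core of the site of NRF1, a regulator of nuclear genes for mitochondrial proteins. They had low folds or no series-wide peak. The stretches lie at chr4:34614857-34614982 plus (Rars2, arginine), chr17:35667567-35667692 minus (Vars2, valine) and chr3:99140990-99141115 plus (Wars2, tryptophan), and capitals mark GCGCATGC or its opposite strand.
Rars2: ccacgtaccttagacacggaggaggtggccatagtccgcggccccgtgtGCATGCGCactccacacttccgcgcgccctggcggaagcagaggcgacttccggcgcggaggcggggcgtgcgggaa
Vars2: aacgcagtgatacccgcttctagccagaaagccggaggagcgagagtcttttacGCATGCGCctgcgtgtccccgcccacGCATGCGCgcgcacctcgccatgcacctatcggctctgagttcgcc
Wars2: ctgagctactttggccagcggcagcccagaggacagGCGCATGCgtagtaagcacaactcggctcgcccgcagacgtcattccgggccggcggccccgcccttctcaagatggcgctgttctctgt

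Series-wide peaks lay within 1 kb of the start of 24 of the 30 synthetase and partner genes with a RefSeq start (80.0%), against 6195 of all 17491 protein-coding genes with such a start (35.4%). All 30 had a peak there in both replicates, against 8010 of the 17491 genes (45.8%). Presence of a peak was common in both classes, at 11 of 13 cytosolic or dual genes and 11 of 14 mitochondrial genes, and the classes differed in height. Among genes with a series-wide peak the median fold was 27.5 (10.5 to 37.5) at the cytosolic or dual genes, 13.0 (8.00 to 17.0) at the mitochondrial genes and 13.3 at all protein-coding genes. Folds of at least 20 stood at 9 cytosolic genes, at 0 mitochondrial genes and at 1131 of all genes. Peaks in the top 20% of the series-wide list by fold (21.5 and above) lay at the start of 9 of 13 cytosolic or dual genes, 0 of 14 mitochondrial genes and 0 of 3 partners, against 951 of 17491 genes overall (5.44%).

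Both replicates showed this order. All synthetase genes with a start had a peak there in each replicate, against 48.4% of all genes with a start in replicate 1 and 50.2% in replicate 2. Over the genes with such a peak, the median of the highest fold was 24.5 at cytosolic or dual, 9.75 at mitochondrial and 10 at all genes in replicate 1, and 22.6, 9.75 and 10.2 in the same order in replicate 2. In replicate 1, 10 of 13 cytosolic or dual genes exceeded the highest mitochondrial value of 17.0, and in replicate 2, 9 of 13 exceeded the highest mitochondrial value of 15.5. The classes overlapped through Dars, Kars and Qars, and in replicate 2 also through Gars, which equalled that value.

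**Figure D1:**
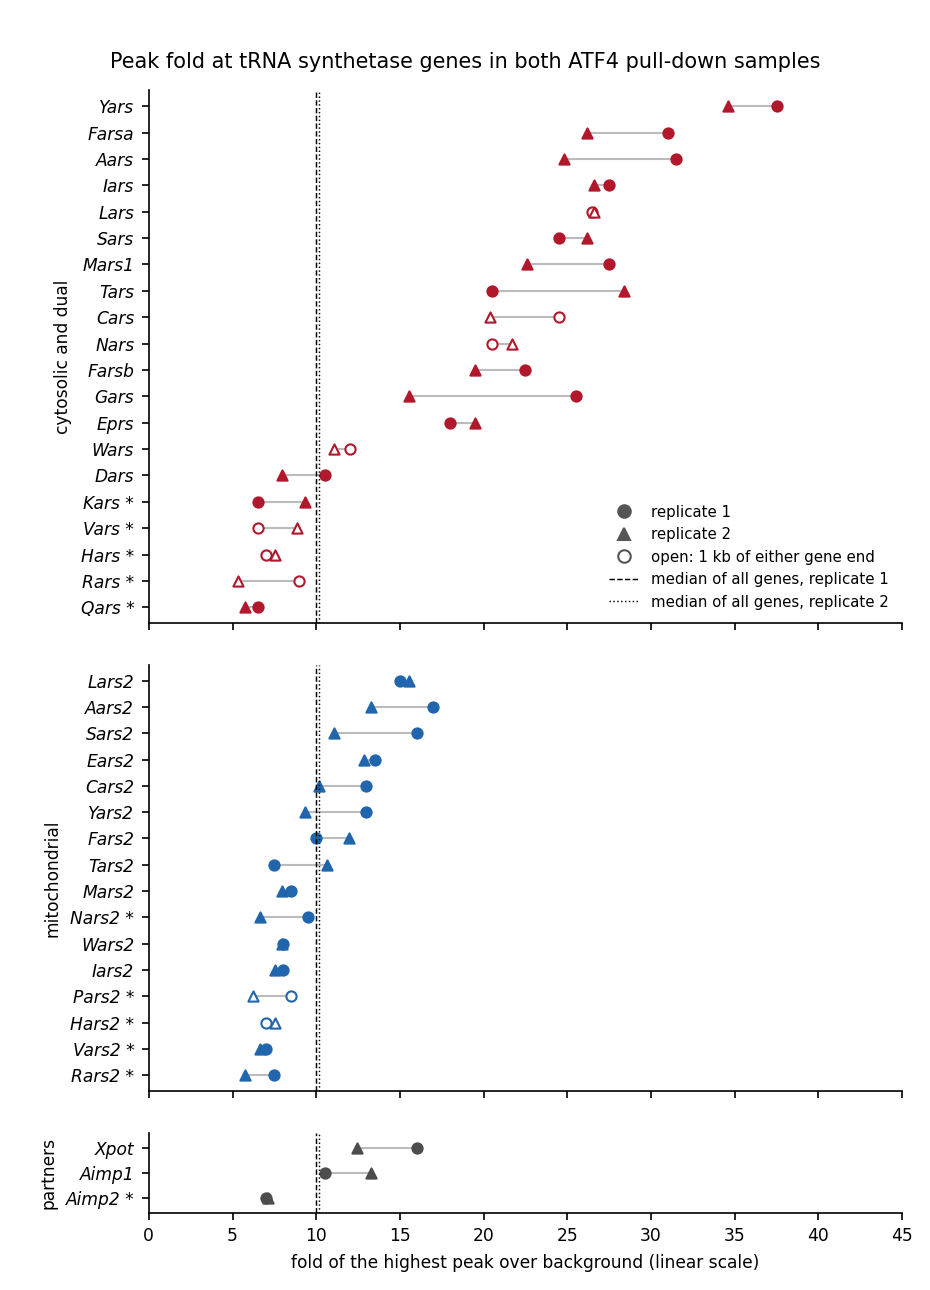
Fold of the highest peak over background (linear scale) at each of the 39 genes in replicate 1 (circles) and replicate 2 (triangles), within 1 kb of the RefSeq start (filled) or, without one, of either gene end (open); an asterisk marks genes with no series-wide peak in that window. Dashed and dotted lines mark the medians of all protein-coding genes with a start peak, 10 and 10.2. The upper 13 cytosolic or dual genes lie at 15.5 or more in both samples, and the mitochondrial genes reach at most 17.0.

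**Figure D2:**
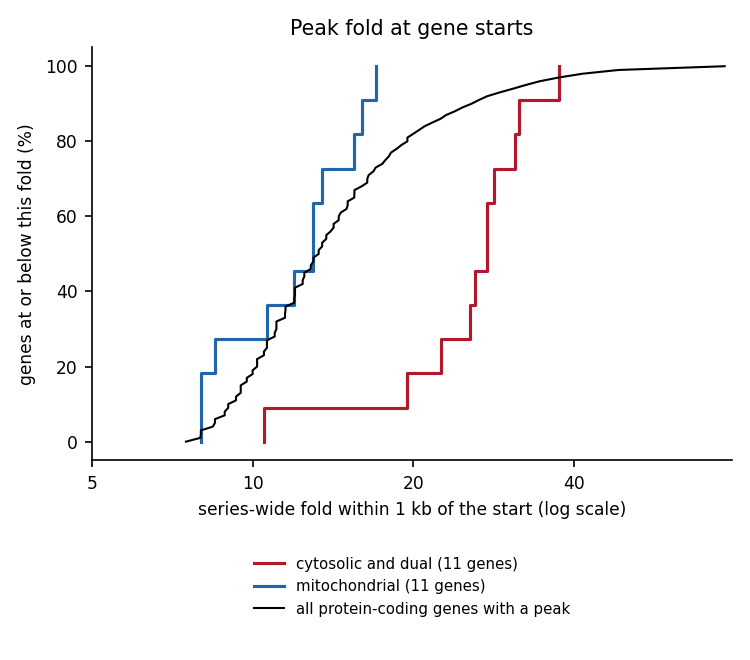
Cumulative percentage of genes (vertical axis) at or below each series-wide fold within 1 kb of the start (horizontal axis, log scale), for the 11 cytosolic or dual genes with a peak, the 11 mitochondrial genes with a peak, and all 6195 protein-coding genes with a peak. The cytosolic line is shifted to the right, with a median of 27.5, while the mitochondrial median of 13.0 is close to the 13.3 of all genes.

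The highest start peak was that of Yars, the tyrosine enzyme, at chr4:129189489-129190376. Its fold was 37.5 in replicate 1 and 34.6 in replicate 2, or 36.0 ± 2.07 (SD, n = 2), and the series-wide value exceeded that of 97.0% of genes with a start peak. The peak also lay within 1 kb of the end of S100pbp, so it cannot be given to Yars alone. Aars had 31.5 and 24.8 (28.2 ± 4.72) at chr8:111033407-111034293, and Farsa had 31.0 and 26.2 (28.6 ± 3.43) at chr8:84856832-84857201. Aars and Farsa differed by less than their SDs, and Yars was above both in each sample. Farsa and its partner subunit gene Farsb, which had 22.5 and 19.5 (21.0 ± 2.12), both stood above the highest mitochondrial gene in each sample.

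Tars had 20.5 and 28.4 (24.4 ± 5.56) at chr15:11399381-11400299. Iars had 27.5 and 26.6 (27.0 ± 0.640) at chr13:49681493-49682714, and Mars1, the methionine enzyme, had 27.5 and 22.6 (25.1 ± 3.46) at chr10:127311311-127313286. These folds lay within 1 SD of each other, so their order is not settled beyond the spread between the samples. Sars, for serine, had 24.5 and 26.2 (25.3 ± 1.17), but the summit of its peak lay 1047 bases downstream of the start. Gars had 25.5 and 15.5 (20.5 ± 7.06), the widest gap between the samples, and was the 1 gene of 30 whose replicates differed by more than 1.5 times. Eprs, which encodes a joint enzyme for glutamate and proline, had 18.0 and 19.5 (18.8 ± 1.06).

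The low end of the cytosolic class was Dars, Kars and Qars, the enzymes for aspartate, lysine and glutamine. Dars had 10.5 and 7.98 (9.24 ± 1.78), with its summit 763 bases downstream of the start. Kars had 6.50 and 9.31 (7.90 ± 1.99) and Qars had 6.50 and 5.76 (6.13 ± 0.522), with no series-wide peak at either start. The weak Kars peaks also lay within 1 kb of Terf2ip. At Qars the series-wide peak of the gene ends was at the far end beside Qrich1. The highest replicate peaks under it, 7.50 and 10.2 (8.85 ± 1.91), lay beyond the 1 kb window, with summits 1.6 kb past the gene end. The replicate peaks inside the window there had 7.00 and 7.98.

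Of the 7 cytosolic genes without a RefSeq start, 3 had high folds at a gene end. Lars (leucine) had 26.5 and 26.6 (26.5 ± 0.0668) at chr18:42261697-42262422, Cars (cysteine) had 24.5 and 20.4 (22.4 ± 2.91) at chr7:143599677-143600378, and Nars (asparagine) had 20.5 and 21.7 (21.1 ± 0.862) at chr18:64516161-64516825. Wars, for tryptophan, had 12.0 and 11.1 (11.5 ± 0.650) at a peak also within 1 kb of Wdr25. The remaining 3 genes had no series-wide peak at an end. Rars (arginine) had 9.00 and 5.32 (7.16 ± 2.60), Vars (valine) had 6.50 and 8.87 (7.68 ± 1.67) beside D17H6S56E-5, and Hars (histidine) had 7.00 and 7.54 (7.27 ± 0.378). Hars and Hars2 share these last peaks, because their gene models meet head to head, so neither gene's value is its own.

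At the mitochondrial genes no start peak exceeded a fold of 17.0. By mean, Lars2 led with 15.0 and 15.5 (15.3 ± 0.363), followed by Aars2 with 17.0 and 13.3 (15.1 ± 2.62) and Sars2 with 16.0 and 11.1 (13.5 ± 3.48), the last also within 1 kb of the mitochondrial ribosomal protein gene Mrps12. Ears2 had 13.5 and 12.9 (13.2 ± 0.457) beside Ubfd1. Cars2 had 13.0 and 10.2 (11.6 ± 1.98), Yars2 had 13.0 and 9.31 (11.2 ± 2.61), and Fars2 had 10 and 12.0 (11.0 ± 1.39) beside Lyrm4. Neighbours in the order of these 7 means differed by less than the larger of their SDs.

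Lower still were Tars2 with 7.50 and 10.6 (9.07 ± 2.22) at its start, Mars2 with 8.50 and 7.98 (8.24 ± 0.369), Wars2 with 8.00 and 7.98 (7.99 ± 0.0153) and Iars2 with 8.00 and 7.54 (7.77 ± 0.329) beside Bpnt1. The series-wide folds of Iars2 and Wars2 exceeded those of 1.69% of genes with a start peak. No series-wide peak lay at the start of Nars2 (9.50 and 6.65, 8.07 ± 2.02), Rars2 (7.50 and 5.76, 6.63 ± 1.23, beside Orc3) or Vars2 (7.00 and 6.65, 6.82 ± 0.248, beside Gtf2h4), or at an end of Pars2, the proline enzyme (8.50 and 6.21, 7.35 ± 1.62). The weak peaks were present in both samples in each case.

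Among the partners, Xpot had 16.0 and 12.4 (14.2 ± 2.54) at its start and Aimp1 had 10.5 and 13.3 (11.9 ± 1.98) at a peak also within 1 kb of Tbck. Aimp2 had 7.00 and 7.09 (7.05 ± 0.0649) beside Pms2 and no series-wide peak. At its far end, beside Eif2ak1, which encodes one of the kinases that phosphorylate eIF2α, there was a peak of 9.50 in replicate 1 and one of 5.32 in replicate 2. The series-wide folds of Xpot (16.0) and Aimp1 (13.3) exceeded those of 67.9% and 49.9% of genes with a start peak. No partner reached the cytosolic median.

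The window of 1 kb around either end of the gene model, which needs no promoter entry, gave the same order for all 39 genes. Series-wide peaks lay there at 27 of 39 genes (69.2%), against 34.8% of all protein-coding genes: at 15 of 20 cytosolic or dual, 10 of 16 mitochondrial and 2 of 3 partner genes. Median folds were 25.5 at cytosolic or dual, 12.5 at mitochondrial and 13.3 at all genes with a peak. Both replicates had a peak at an end of 37 of 39 genes, against 45.1% of all genes. The exceptions were Eprs and Aars2, whose RefSeq starts lie 1.63 kb and 3.32 kb inside the gene model, and which had peaks in both replicates at those starts. Aars has its start 6.06 kb inside the model, so the highest peak of the end window is the far one beside Exosc6 (11.5 and 9.75, 10.6 ± 1.24), and the window misses the start peak of 31.5. Tars2 likewise showed 12.0 and 11.1 (11.5 ± 0.650) at its far end beside Ecm1, with its start 1.39 kb inside.

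One value in the end window went the other way. Lars2 had 47.5 and 38.1 (42.8 ± 6.63), higher than any other synthetase gene in either window, at chr9:123461861-123462223. This narrow peak lies at the far end of the gene, 95.1 kb from the start, where the start peak itself had 15.0 and 15.5. The replicate peaks there share their edges within a few bases. Input at this place was not divided out, and its part in the fold was not tested.

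Of 14 amino acids with a cytosolic and a mitochondrial gene in the set, 7 pairs had a RefSeq start for both genes. In all 7 the cytosolic gene had the higher fold in the series-wide list and in each replicate, and the lower of its replicate values exceeded the higher of its mitochondrial counterpart's. The ratio of series-wide folds, cytosolic over mitochondrial, had a median of 2.67 and ran between 1.63 and 3.44. The widest were Iars over Iars2 (3.44), Mars1 over Mars2 (3.24) and Yars over Yars2 (2.88), and the narrowest were Aars over Aars2 (1.85) and Sars over Sars2 (1.63). In the end window the cytosolic gene was higher in 10 of 14 pairs, neither gene of 3 pairs had a series-wide peak (Hars, Rars and Vars with their counterparts), and Lars over Lars2 was 0.560, with Lars2 represented by its far peak. Over the gene body with 10 kb on either side, the cytosolic gene was higher in 9 pairs and the mitochondrial gene in 5 (Cars2, Fars2, Hars2, Lars2 and Nars2). These ratios describe genes of the same 2 samples; genes are not replicates, and no test was run on them.

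**Figure D3:**
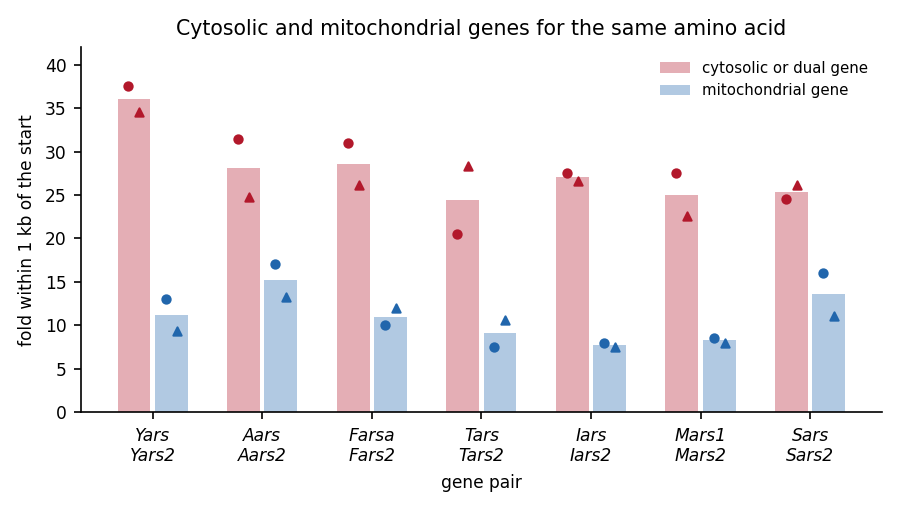
Fold within 1 kb of the start (vertical axis) for the 7 amino acids whose cytosolic or dual gene (left bar, upper name) and mitochondrial gene (right bar, lower name) both had a RefSeq start; bars are means of the 2 pull-down samples, circles replicate 1 and triangles replicate 2. In every pair both cytosolic points lie above both mitochondrial points.

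The genes of the multisynthetase complex, synthetases and scaffold genes counted together, were uneven. Of the 9 complex genes with a start, counting the scaffold gene Eef1e1, 5 had a series-wide start peak: Iars and Mars1 at 27.5, Eprs at 19.5, Aimp1 at 13.3 and Dars at 10.5. Kars, Qars, Aimp2 and Eef1e1 (5.50 and 9.31) had none. The 7 cytosolic synthetases outside the complex all had one, between 22.5 and 37.5 with a median of 28.4. Some genes are commonly listed as induced in the integrated stress response, a list from general knowledge. Those with a RefSeq start had a start peak at 9 of 9, with a median of 27.5 (16.0 to 37.5). The other cytosolic synthetases with a start had one at 3 of 5, with a median of 22.5. At gene ends the counts were 12 of 14 listed genes (median 25.8), with none at Eprs and Vars, and 4 of 7 others (median 16.5). The last group included Farsa at 31.0 and Farsb at 22.5, inside the range of the listed genes. By structural class of the enzyme, the medians at starts were 27.5 for class I and 26.2 for class II cytosolic genes, and 13.0 for class I and 14.0 for class II mitochondrial genes.

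The letters TGATGNAA were searched on both strands of the 32851 promoter windows of the RefSeq table, each with 250 bases before the start and 50 from it on. They occur in 1304 windows (3.97%). Of the 32 windows of synthetase and partner genes, 5 hold them (15.6%): those of Yars, Aars, Gars, Iars and Tars, which are 5 of 13 cytosolic or dual genes, against 0 of 14 mitochondrial genes and 0 of 3 partners. In Yars the element TGATGCAA lies on the gene's own strand at positions 3 to 10. On the opposite strand it lies at 7 to 14 in Iars, at -15 to -8 in Tars and at -112 to -105 in Aars. TGATGAAA lies on the opposite strand at -30 to -23 in Gars and at 9 to 16 in Aars, which therefore holds 2 copies.

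The peak summits lay close to these letters. In replicates 1 and 2 the distance between the summit and the middle of the nearest copy was 13.5 and 0.5 bases in Yars, 10.5 and 16.5 in Aars, 5.5 and 6.5 in Gars, and 0.5 and 9.5 in Iars. In Tars the summit was 6.5 bases away in replicate 1 and 301.5 bases away in replicate 2, whose highest point lay at position -313. By the series-wide summit, 4 of the 5 genes were within 25 bases. For all genes the distance was taken at the start whose own window holds the letters, where other starts of a gene do not count. Of the 163 genes with a series-wide peak within 1 kb of such a start, 39 (23.9%) were that close and the median distance was 140.5 bases. Among the 43 of them with a fold of at least 20, 16 (37.2%) were within 25 bases, with a median of 49.5. The distances over all genes use series-wide summits, which can lie away from the replicate summits where several replicate peaks were joined.

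**Figure D4:**
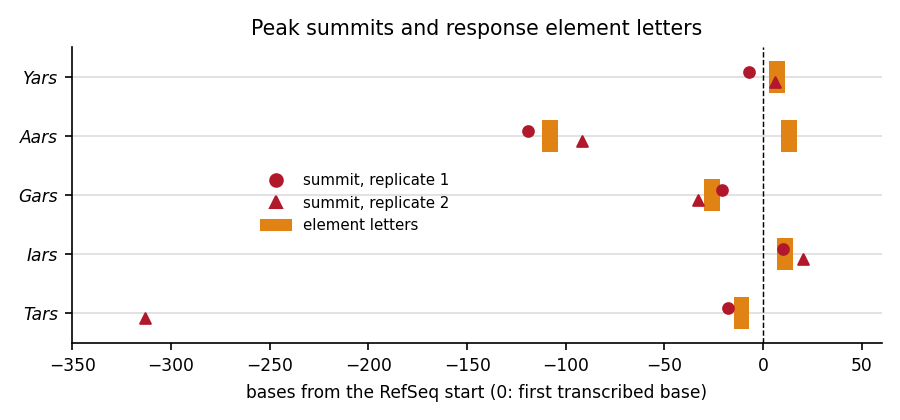
Position of the peak summit in replicate 1 (circles) and replicate 2 (triangles) and of the letters TGATGNAA (orange) along the promoters of 5 cytosolic or dual synthetase genes, in bases from the RefSeq start at 0. Summits of both samples lie within 16.5 bases of a copy in Yars, Aars, Gars and Iars, and the Tars summit of replicate 2 lies at -313.

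Counting every start of a gene, over all genes the letters were present in 48 of 1131 genes with a fold of at least 20 (4.24%), beside 538 of 11296 genes with no series-wide start peak (4.76%). Among synthetase and partner genes they were present in 5 of 9 with a fold of at least 20 and in 0 of the other 21. High folds also occurred without them, at Farsa, Mars1, Sars and Farsb. A match of letters is a description of this window only, and sequence under peaks outside the window was not searched.

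Other letters were distributed differently. The shorter TGATG occurs in 39.3% of all windows and in 12 of the synthetase and partner windows, from 8 cytosolic or dual and 4 mitochondrial genes. TGACGTCA, the cyclic AMP response element (1.79% of windows), and TGACGCAA, a hybrid of it with part of a C/EBP site (0.490%), occur in 0 of the 32. The E-box CACGTG (7.15%) occurs in 6: in Aars, Iars, Tars and Farsb of the cytosolic genes, in Ears2 and in Xpot. GCGCATGC (2.71%) occurs in 3, all mitochondrial: Rars2 and Vars2, which had no series-wide start peak, and Wars2, which had 8.00. Over all genes, GCGCATGC was present in 2.84% of those with no series-wide start peak. It was present in 7.14% of genes with a fold under 10, 5.69% at 10 to 20 and 5.57% at 20 or more. Vars2 holds 2 copies. TGATG is part of every TGATGNAA copy and overlaps CACGTG in Farsb, and the other letters searched did not overlap each other in these windows.

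Some start peaks lay beside another gene. Of 14 mitochondrial genes with a start, 6 had their highest start peak within 1 kb of another protein-coding gene's end. So did 2 of 13 cytosolic or dual genes (Yars and Kars). Such peaks cannot be given to either gene. The share over all protein-coding genes was not computed, so these counts stand without a background. Series-wide summits lay within 100 bases of the start at 5 of 11 cytosolic or dual genes with a start peak (median distance 119 bases). They did so at 9 of 11 mitochondrial genes (56 bases) and at 44.7% of all genes with a start peak (122 bases). Where a series-wide peak joins several replicate peaks, its summit can lie away from theirs, which limits all these counts. At Eprs, among the 5, it lay at position 14, and the highest replicate peaks had summits at -148 and -86.

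Over the gene body with 10 kb on either side, 35 of 39 genes held a series-wide peak against 61.0% of all protein-coding genes, and all 39 held a peak in both replicates, against 70.0% of all genes. The genes without a series-wide peak even there were Hars, Kars, Pars2 and Rars2. Over this wider region the classes were closer, with median highest folds of 25.8 at cytosolic or dual, 16.8 at mitochondrial and 17.0 at all genes. The highest peaks there often lay away from the gene ends. Cars2 had 43.0 at a peak 7.31 kb outside the gene model, upstream of its start, Ears2 had 40.8 at a peak 21.5 kb downstream of its start, and Fars2, a long gene, had peaks of 32.8, 25.3 and 24.4. On the cytosolic side, Cars had 32.5 at a peak whose replicate 1 summit lay 11.9 kb inside the gene, and Lars had peaks of 35.0 and 29.7. The highest value counted for Mars1, 37.7, belongs to a peak within 1 kb of the neighbouring genes Ddit3 and Mbd6. The peak had 35.5 and 37.7 (36.6 ± 1.54) in the samples and cannot be given to either neighbour. Ddit3 encodes the stress response factor CHOP.

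Median folds at other genes of tRNA biology were below that of the cytosolic synthetases. Of 17 other cytosolic genes of tRNA charging, delivery and editing, 11 had a series-wide peak at an end, with a median fold of 12.5. The highest were the elongation factor genes Eef1d (21.0 and 22.2, 21.6 ± 0.822) and Eef1g (20.0 and 16.8, 18.4 ± 2.23). Of 22 other mitochondrial genes of tRNA charging, maturation and translation, 17 had one, with a median of 10.6. The highest were the release factor gene Mtrf1l (19.5 and 23.5, 21.5 ± 2.82) and Trmu, which encodes a tRNA thiolation enzyme (23.0 and 19.5, 21.3 ± 2.47), both above every mitochondrial synthetase start peak.

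Between the samples, the folds at the gene ends of the 37 genes with a peak in both had a Spearman rank correlation of 0.865 and a Pearson correlation of 0.943 across genes, beside 0.789 and 0.904 across 9884 genes overall. Genes share the same 2 libraries, and these are descriptions. Replicate 1 was higher at 26 of the 37 (70.3%), with a median ratio of replicate 1 to replicate 2 of 1.08, beside 48.7% and 0.994 over all genes. The 12 genes with no series-wide peak at an end had replicate folds between 5.32 and 9.50 where a peak was called. These lay below the all-gene medians at gene ends, 10 in replicate 1 and 10.2 in replicate 2. Some lay above the median of all peaks in their list, 8.50 in replicate 1 and 7.98 in replicate 2.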

How the data were processed

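Per the labels' protocols, tissue was fixed in formaldehyde, sonicated, precleared with protein A and captured on streptavidin. Per the submitters' processing notes, the build was mm10, and deepTools, MACS2 and Bowtie2 appear without a role or version. The series-wide list gives the fold ratio of each peak over background as deposited by the authors. The replicate lists give a deposited −log10 p-value or q-value for each peak, and the values do not show which.

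Replicate folds were read from peaks that a replicate list shares exactly with the series-wide list (17420 and 21063 peaks), where 1 −log10 value goes with 1 fold, apart from 0 and 16 peaks. The 4 and 5 lowest values were continued downwards in steps of 0.500 and 0.443, and 2 and 9 inner values were interpolated. These folds match constant backgrounds of 1.00 and 1.26 and were not scaled between samples. Series-wide positions were moved by 1 base to match the replicate lists, and 0 value columns stayed unmapped in the 3 lists.

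Protein-coding gene models were from RefSeq (GRCm38.p6) in a table without exons, so exons and introns were not told apart. A peak counts at a window when it overlaps it by at least 1 bp, and the highest fold there is given. Depth is unknown, and no interval is given. Members and gene lists were chosen with earlier results of these data known, and no significance test was run. All members are named. Values were planned for the 6 highest of each class at gene ends, the partners, members without a series-wide peak, the 3 widest pairs and those below 1, and peaks beside another gene; the others were added after their values were seen. The counting of peaks at gene ends was tested on simulated peaks, and the letter search was not tested in this way. Alternatives were wider or narrower windows, peaks of higher fold, each replicate alone and other letters. Scripts ran in Python 3.11.15 with pandas 2.3.3, NumPy 2.4.6, SciPy 1.17.1 and, for the plots, Matplotlib 3.10.9.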

Additional observations from a re-analysis of the deposited data

How the results depend on the processing

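With the top 50% and top 20% of peaks by fold, 2 and 1 mitochondrial genes and 14 and 12 of the 39 genes kept a peak at an end (10 and 27 otherwise), and 17 of 39 kept a top 20% peak in the body with 10 kb. The top 50% of each replicate list left 24 genes with a peak at an end in both replicates, against 37. Shares over all genes were not computed for these cutoffs. At a series-wide fold of at least 20, the body with 10 kb held a peak at 17 of 39 genes and at 5212 of all 21896. The end window held one at 12 of 39 genes and at 1453 of all 21896. The cytosolic median of 25.5 was 24.5 with a window of 5 kb, 22.1 with genes lacking a peak set to 0, and 27.5 at RefSeq starts, an alternative added after seeing the data. With 1 replicate left out it was 19.5 to 20.5. With the top 50% and top 20% of peaks, also added later, the cytosolic median was 26.6 in both, and the mitochondrial one was 31.8 and 47.5, above it, from Lars2 at its far end and, in the top 50%, Sars2. The mitochondrial median of 12.5 was 8.25 with genes lacking a peak set to 0 and 7.98 to 9.50 with 1 replicate left out. Promoters holding letters numbered 5 for TGATGNAA, 0 for TGACGTCA, 0 for TGACGCAA, 3 for GCGCATGC and 12 for TGATG. No paired analysis was possible because the input samples gave no values and no result comes from a test.

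Depth is unknown, input was not divided out, and with 2 samples an SD is a rough guide. The series-wide folds take the higher replicate value, so they run above either replicate. For 9 genes the start is not given by the table used, and a peak at the far end of a gene can stand in for its start.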
